A study of Rattus norvegicus with 11 samples.

Results

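The 8 genes described here make or sense cholesterol, and their mRNA was measured in the ileum of 11 rats. They were chosen by name (Hmgcs1, Idi1, Fdft1, Sqle, Lss, Cyp51, Insig1 and Srebf2), and all 8 were found among the 24481 genes with read counts and the 24205 genes with FPKM. FPKM is a level scaled to the length of the gene and to the size of the library, so levels of different genes can be set side by side on it. No member is a receptor or transporter for cholesterol uptake, although the set was compiled as synthesis and uptake genes, and uptake is covered below by other genes of the pathway.

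All animals were male SD rats of 6 to 8 weeks, of which the 3 rats of the control group, like the 4 of the SAP group, received vehicle into the peritoneum. SAP stands for severe acute pancreatitis, which was induced by 3% sodium taurocholate, a bile salt, injected into the pancreatic duct. The 4 rats of the JZL184 group had the same pancreatitis and received JZL184, an inhibitor of monoacylglycerol lipase, at 10 mg/kg, 24 h after surgery, and ileum was collected 24 h after that injection. What surgery the control rats had is not given in the sources used here, and no group received JZL184 without pancreatitis. The labels of the libraries name a control plasmid and oil where the protocol names vehicle, and they name intestinal epithelial cells where the RNA came from whole ileal tissue.

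Between 26341299 and 33847135 reads per library lay on genes. Control libraries 1 and 2 differed far less from each other (chi-square per gene 2.81) than the other 14 pairs of libraries within a group (77.48 to 563.03), so they were counted as 1 sample and the control group has n = 2. SAP library 2 went against the label of male rats, with 7826 reads of Xist and 20 of 3 genes of the Y chromosome, where the other 10 libraries had at most 56 and at least 1222. The summed FPKM of 9 measured enterocyte markers was 573.7 in JZL184 library 3, against 9427 to 39610 in the other 10 libraries. In JZL184 library 1 that sum was 23429, but Fabp6, the bile acid binding protein of the ileum, was at 409.74 FPKM and Lct, lactase, at 44.45 FPKM, where the controls had 20506 to 21819 and 0.24 to 0.33 FPKM. Without SAP library 2 or JZL184 library 3 the count of members called below stayed at 0 in each comparison, and without JZL184 library 1 it was 1 in JZL184 against control.

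Cholesterol is built from acetyl-CoA through mevalonate, squalene and lanosterol. The genes of this pathway share a switch: when the membrane of the endoplasmic reticulum is poor in sterol, the factor SREBP-2, made from Srebf2, is carried to the Golgi by SCAP, cut there, and enters the nucleus to raise transcription of the enzymes. INSIG proteins hold SCAP back when sterol is plentiful, and Insig1 is itself a target of SREBP factors, so the gene of this brake is commonly switched on together with the enzymes. In the gut, enterocytes both make cholesterol and absorb it from bile and food.

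Because the members are known to share this control, the 250 bases before their start sites were searched on both strands. RefSeq promoters of build GRCr8 matched 6 of the 8 genes (Hmgcs1, Idi1, Lss, Cyp51, Insig1 and Srebf2). The 4 promoters shown belong to the first member enzyme of the pathway, the member with the largest difference in JZL184 against control, the brake and the switch. They lie at chr2:53382054-53382303, plus strand (Hmgcs1), at chr4:30991443-30991692, plus strand (Cyp51), at chr4:8057770-8058019, minus strand (Insig1) and at chr7:115543057-115543306, plus strand (Srebf2). Each is written 5′ to 3′ along the gene, and capitals mark CCAAT on either strand (it reads ATTGG on the opposite strand) and TCACNCCA, the short form of the sterol regulatory element.
Hmgcs1: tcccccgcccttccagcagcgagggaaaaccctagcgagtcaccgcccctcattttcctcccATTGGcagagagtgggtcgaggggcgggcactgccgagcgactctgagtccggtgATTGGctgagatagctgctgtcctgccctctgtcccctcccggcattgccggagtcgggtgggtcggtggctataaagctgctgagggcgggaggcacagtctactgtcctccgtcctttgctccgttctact
Cyp51: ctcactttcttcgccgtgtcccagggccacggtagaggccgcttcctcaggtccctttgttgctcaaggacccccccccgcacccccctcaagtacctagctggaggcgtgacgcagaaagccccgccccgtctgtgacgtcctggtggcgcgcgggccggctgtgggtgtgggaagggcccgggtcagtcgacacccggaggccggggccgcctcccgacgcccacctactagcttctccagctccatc
Insig1: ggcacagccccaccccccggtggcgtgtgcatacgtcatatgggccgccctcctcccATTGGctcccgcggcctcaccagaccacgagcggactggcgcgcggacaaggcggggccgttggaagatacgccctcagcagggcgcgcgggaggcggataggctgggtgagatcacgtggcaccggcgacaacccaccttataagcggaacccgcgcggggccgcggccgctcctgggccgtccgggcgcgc
Srebf2: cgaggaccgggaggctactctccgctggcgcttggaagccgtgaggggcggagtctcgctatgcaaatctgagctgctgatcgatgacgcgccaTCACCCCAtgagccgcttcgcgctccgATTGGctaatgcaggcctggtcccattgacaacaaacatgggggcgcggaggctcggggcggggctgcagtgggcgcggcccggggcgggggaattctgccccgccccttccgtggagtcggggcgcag
TCACNCCA was present in 1 of the 6 promoters, that of Srebf2, where its first base was at -156 from the start site, and in 3.24% of 33469 promoters of the same length. The longer form TCACNCCAC, whose every match also holds TCACNCCA, was in 0 of the 6 and in 0.974% of all. CCAAT, the letters bound by NF-Y, was in 5 of the 6 (not in Cyp51) and in 34.0% of all. GGGCGG, the letters of the GC box, was in 5 of the 6 (not in Idi1) and in 30.5% of all, and CACGTG, an E-box, was in Insig1 alone of the 6 and in 5.59% of all. These are matches of letters in a short window and no measurement of binding.

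In these data the 6 enzymes were each below the control mean in JZL184 libraries 2, 3 and 4. All 6 were below it in SAP library 4 too, while in SAP libraries 1 to 3 the enzymes lay on both sides of it. In JZL184 library 1, 5 of the 6 were above it on FPKM. On normalized counts Sqle and Cyp51 in that library were below both control samples. Insig1 did not go with the enzymes in JZL184 libraries 2, 3 and 4, where its FPKM was 1.03, 1.5 and 1.86 times the control mean. In JZL184 library 1 it was above that mean (1.28 times), as were 5 of the 6 enzymes. None of these differences between groups passed the test across all genes. The values of each library follow, in the order of the pathway.

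Hmgcs1 encodes the synthase that condenses acetyl-CoA units to HMG-CoA. Its FPKM was 33.51, 33.74 and 63.48 in control libraries 1 to 3, 68.66, 74.92, 40.56 and 33.39 in SAP libraries 1 to 4, and 69.15, 21.00, 29.08 and 30.82 in JZL184 libraries 1 to 4. Control library 3, SAP libraries 1 and 2 and JZL184 library 1 were high, and all groups overlapped. Idi1, which isomerizes the isoprenoid unit from which squalene is built, was at 14.20, 13.89 and 21.77 FPKM in the control group, at 52.11, 45.98, 17.93 and 11.96 in the SAP group, and at 25.81, 7.56, 12.01 and 13.38 in the JZL184 group. SAP libraries 1 and 2 stood above all others, at 2.91 and 2.57 times the control mean, while SAP libraries 3 and 4 were at 1.0 and 0.668 times.

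Fdft1, squalene synthase, makes the first intermediate committed to sterols. Its FPKM was 67.92, 65.43 and 51.18 in the control group, 68.40, 75.09, 59.72 and 45.69 in the SAP group, and 40.85, 24.87, 48.49 and 39.18 in the JZL184 group. Every JZL184 library was below every control library, and on FPKM Fdft1 was the only enzyme below the control mean in JZL184 library 1. Sqle, squalene epoxidase, which adds the first oxygen to squalene, had 16.71, 16.72 and 16.36 FPKM in the control group, 22.75, 22.37, 16.58 and 12.17 in the SAP group, and 16.86, 3.70, 7.57 and 10.79 in the JZL184 group. Its lowest value, in JZL184 library 2, was 0.224 times the control mean, the lowest such ratio of any member in any library.

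Lss, lanosterol synthase, closes the sterol rings. It was the least abundant member enzyme, at 5.50, 5.31 and 5.19 FPKM in the control group, 6.13, 5.10, 4.91 and 3.93 in the SAP group, and 6.51, 2.48, 2.24 and 4.17 in the JZL184 group. JZL184 library 1 held the highest level of all and the other 3 JZL184 libraries included the lowest. Cyp51, which removes a methyl group from lanosterol, had the highest mean level of the members in each group, at 134.11, 136.97 and 150.93 FPKM in the control group, 133.79, 121.46, 165.08 and 123.98 in the SAP group, and 149.15, 39.55, 41.35 and 70.43 in the JZL184 group. JZL184 libraries 2, 3 and 4 lay at 0.276, 0.289 and 0.492 times the control mean, while library 1 lay among the controls, and in library 3 Insig1 and Fdft1 were above it.

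Insig1, the brake on SREBP activation, showed another order. It was at 26.54, 25.64 and 41.53 FPKM in the control group, 40.61, 43.58, 33.22 and 32.57 in the SAP group, and 43.31, 34.77, 50.59 and 62.87 in the JZL184 group. The highest values were in JZL184 libraries 3 and 4, which were low for the enzymes. Srebf2, the gene of the switch, was at 6.83, 6.93 and 7.09 FPKM in the control group, 11.57, 11.28, 7.59 and 6.62 in the SAP group, and 8.32, 6.4, 5.16 and 7.67 in the JZL184 group. SAP libraries 1 and 2 were above all other libraries for Srebf2, and the JZL184 values lay on both sides of the controls.

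**Figure D1:**
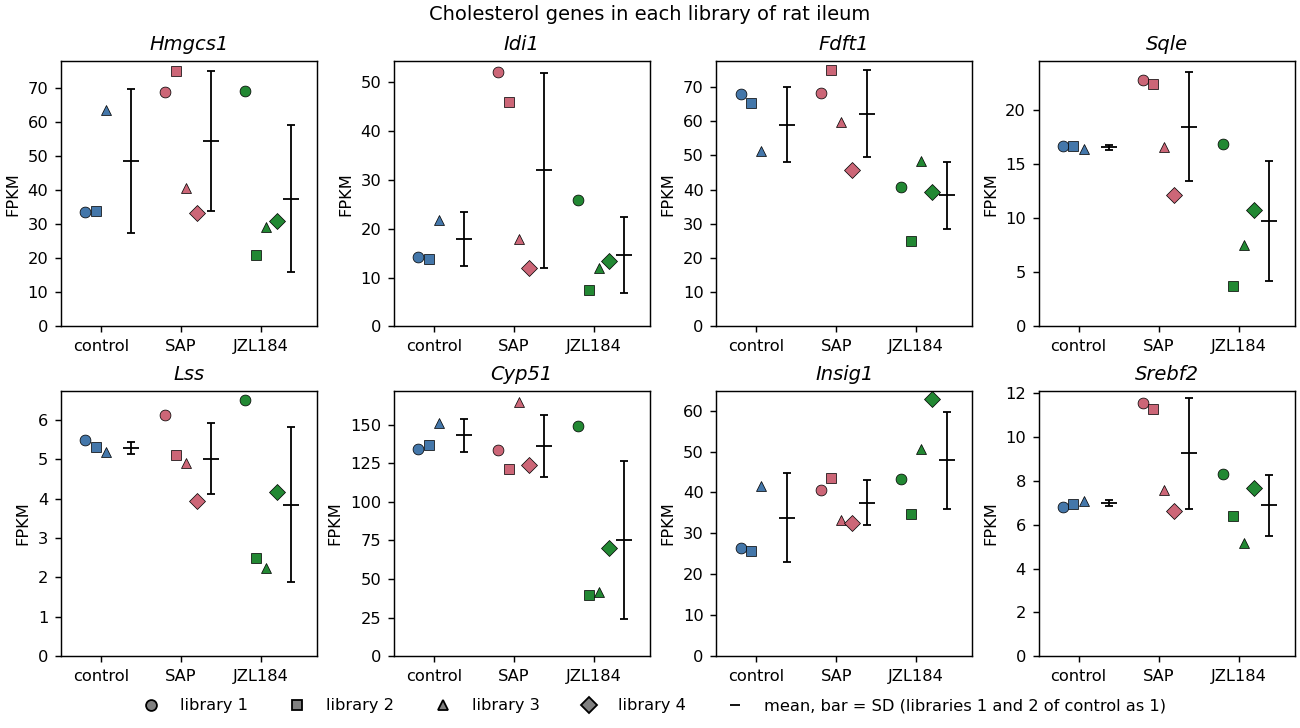
FPKM of the 8 genes in each library (points, shape by library number, colour by group), with the mean and SD of each group (control libraries 1 and 2 as 1 sample, n = 2, 4 and 4). JZL184 library 1 sits above the control mean for Hmgcs1, Idi1, Sqle, Lss and Cyp51, and SAP libraries 1 and 2 sit above SAP libraries 3 and 4 for 7 of the 8 genes, all but Cyp51.

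By mean level in the control group the order was Cyp51 (143.2 ± 10.9 FPKM, SD, n = 2), Fdft1 (58.9 ± 10.96), Hmgcs1 (48.6 ± 21.1), Insig1 (33.8 ± 10.9), Idi1 (17.9 ± 5.46), Sqle (16.5 ± 0.251), Srebf2 (6.99 ± 0.149) and Lss (5.30 ± 0.152). The ranges of the control samples overlapped between Fdft1 and Hmgcs1, between Hmgcs1 and Insig1, and between Idi1 and Sqle, and not between the other neighbours in this order. In the JZL184 group the means were 75.1 ± 51.3 FPKM for Cyp51, 47.9 ± 11.9 for Insig1, 38.4 ± 9.86 for Fdft1 and 37.5 ± 21.5 for Hmgcs1 (SD, n = 4), so that Insig1 moved up to the place behind Cyp51, with overlapping ranges.

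The first comparison, SAP against control, shows what pancreatitis with its surgery went with. No member was called (adjusted p below 0.05 and a change of more than 2-fold) by edgeR's quasi-likelihood test, against 0.0% of the 16029 genes tested, nor by DESeq2, which called 0.893% of genes. At an unadjusted p under 0.05, edgeR had 0 members and 1457 genes (9.09%). Idi1 had the largest log2 fold change, 0.63 ± 0.57 (SE), at an edgeR adjusted p of 0.571, and it rested on SAP libraries 1 and 2. Srebf2 was at 0.22 ± 0.30, and the other 6 members were below 0, with Lss at -0.26, Cyp51 at -0.24, Fdft1 at -0.12, and Sqle, Hmgcs1 and Insig1 between -0.03 and -0.01. The median over the 8 members was -0.02, beside 0.06 over all genes tested. On normalized counts 0 of the 8 members had groups that did not overlap, where 23.2% of all genes did. SAP libraries 1 and 2 also had the lowest summed enterocyte markers of their group (9458 and 9427 FPKM, against 23459 and 24530 in libraries 3 and 4). Their summed crypt and cell cycle markers were the highest (321.5 and 441.4 FPKM, against 217.3 and 176.9). Of the enterocyte list, Fabp6, Fabp2, Apoa1 and Anpep were lower in libraries 1 and 2. Apob was higher there (27.46 and 58.75 against 10.9 and 10.28 FPKM), and the others overlapped. Of the crypt list only Pcna was lower there (57.8 and 54.48 against 78.12 and 76.65 FPKM). The part of cell types in the 7 members higher in libraries 1 and 2 than in 3 and 4 (all but Cyp51) was not tested. In whole tissue fewer cells of a type and less RNA per cell cannot be told apart. Length offsets, which take out any trend of levels with gene length, changed the sign of Sqle (0.079) and Srebf2 (-0.16) in this comparison. Differences in RNA quality were not tested.

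The second comparison, JZL184 against SAP, asks what the inhibitor went with in rats with pancreatitis. All 6 enzymes had a log2 fold change below 0, from -0.94 for Idi1 to -0.23 for Lss with a median of -0.64, and Insig1 was at 0.52 ± 0.24 (SE). Against SAP libraries 3 and 4 alone, Idi1 was at 0.004 and Hmgcs1 at 0.045, Cyp51 at -0.92 and Sqle at -0.54, and the median of the 8 members went from -0.46 to -0.077. No member was called by edgeR, which called 0.0% of 15308 genes, or by DESeq2, which called 5.32%. The edgeR adjusted p was lowest for Fdft1 (0.228, log2 fold change -0.54 ± 0.24) and for Insig1 (0.243). Without adjustment 1 of the 8 members, Fdft1, had a p under 0.05, where 3267 genes (21.3%) did. The members' median was -0.46 and that of all genes -0.05, with 7 of the 8 members and 52.6% of all genes below 0. On normalized counts, Insig1 was higher in every JZL184 library than in every SAP library, as were 6.23% of genes, and Fdft1 was lower in every one, as were 5.59%. On the FPKM scale neither separated the groups, because the scaling between libraries differs, and the exact two-sided permutation test on FPKM gave p = 0.0571 for Fdft1 and p = 0.143 for Insig1 (unadjusted, 24 tests in all, smallest possible p 0.0286).

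The third comparison sets JZL184, with pancreatitis, against control. Cyp51 had the largest log2 fold change, -0.99 ± 0.49 (SE, edgeR adjusted p 0.238), followed by Sqle at -0.84 ± 0.46 and Fdft1 at -0.68 ± 0.30. Lss, Hmgcs1 and Idi1 were at -0.52, -0.42 and -0.34, Srebf2 was at -0.05, and Insig1 was at 0.47 ± 0.33. No member was called, where edgeR called 2.16% of 15916 genes and DESeq2, also with 0 members, 8.04%. One member, Fdft1, had an unadjusted p under 0.05, as did 4178 genes (26.3%). The median over the members was -0.47, beside 0.08 over all genes, of which 46.0% were below 0. Fdft1, Sqle and Cyp51 were lower in every JZL184 library than in every control sample on normalized counts, as were 19.3% of genes, while on FPKM only Fdft1 was, with an exact permutation p of 0.0667, the smallest that 4 against 2 samples allow.

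**Figure D2:**
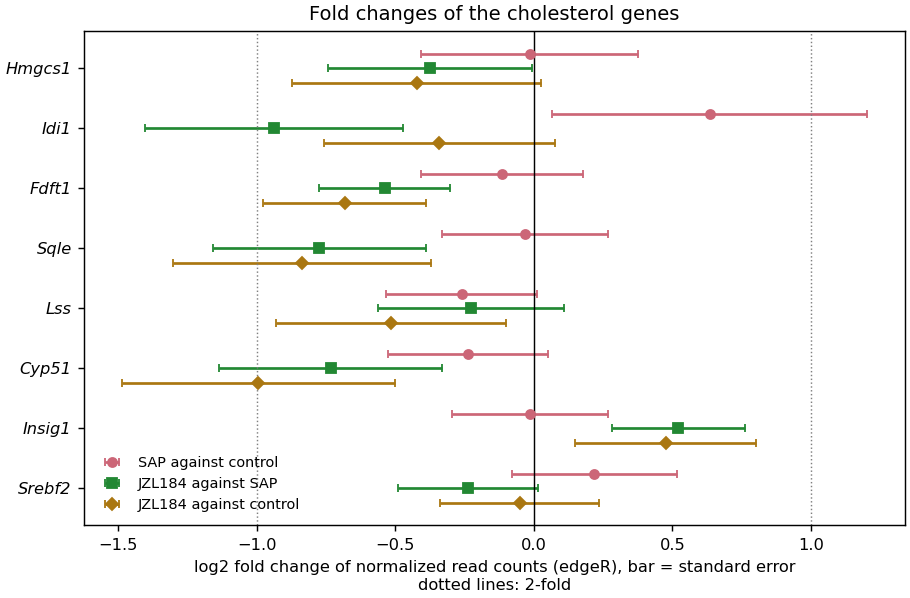
Log2 fold changes of normalized read counts (points) with standard errors (bars) for the 8 genes in the 3 comparisons, with dotted lines at 2-fold. With JZL184, the 6 enzymes lie left of 0 and Insig1 right of it, no point passes 2-fold, and Cyp51 against control comes closest at -0.99.

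The call for Cyp51 against control depended on the libraries and on the method. Cyp51 was called without JZL184 library 1 (log2 fold change -1.50, edgeR adjusted p 0.0333), with JZL184 libraries 2 and 4 alone (-1.33, edgeR adjusted p 0.017), and with all 4 libraries by limma-voom with sample weights (-1.21, adjusted p 0.0392). Each library was left out in turn, while libraries 2 and 4 alone were chosen after seeing the data. Library 1 had the highest geometric mean of the 6 enzymes in its group (32.57 FPKM), so that its omission lowers the group by construction. On FPKM, the median ratio of the 6 enzymes to the control mean was 1.14 in JZL184 library 1. It was 0.422, 0.528 and 0.659 in libraries 2, 3 and 4. In library 1, 1 of 6 enzymes was below the control mean, and in each of the others 6 of 6 were. In the SAP group these medians were 1.27, 1.31, 1.0 and 0.739, with 1, 2, 2 and 6 of 6 enzymes below the control mean.

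Insig1 was set beside the enzymes within each library, a ratio chosen after its values were seen and given without a test. Divided by the geometric mean FPKM of the 6 enzymes, Insig1 was at 0.978, 0.956 and 1.33 in the control group and at 0.997, 1.11, 1.15 and 1.49 in the SAP group. In the JZL184 group the ratio was 1.33, 3.27, 3.35 and 3.26. JZL184 library 1 thus lay within the range of the other groups, and the other 3 lay close together and above all 8 remaining libraries. Libraries 2 to 4 differed in how the ratio arose, since Insig1 itself was at 1.03, 1.5 and 1.86 times the control mean. With the arithmetic mean the ratio was 0.843 in library 1, 2.10 to 2.24 in libraries 2 to 4 and 0.565 to 0.846 in the 7 libraries of the other groups.

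**Figure D3:**
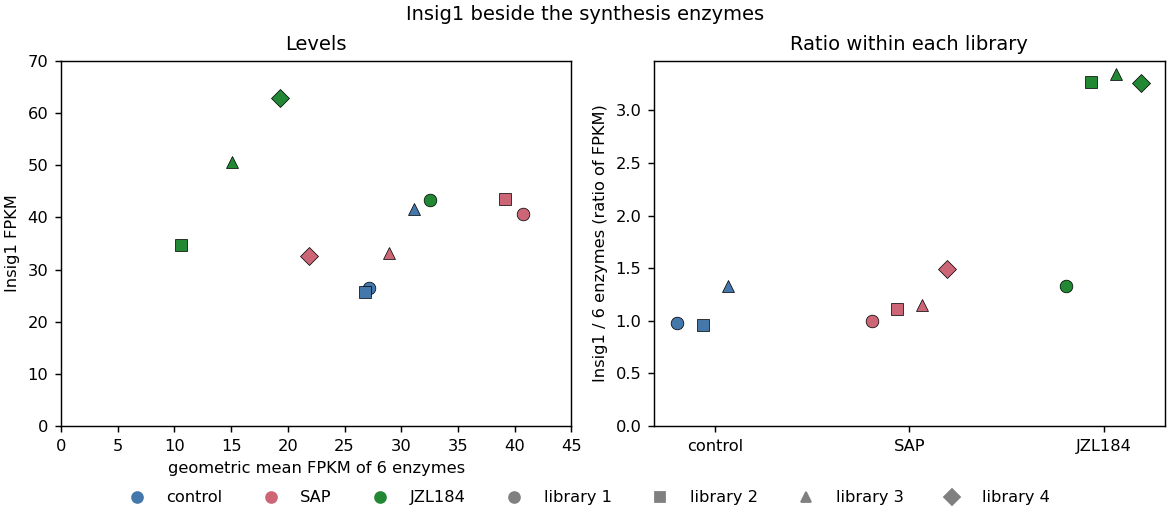
Insig1 FPKM against the geometric mean FPKM of the 6 enzymes (left) and their ratio (right) in each of the 11 libraries, with colour for the group and shape for the library number. JZL184 libraries 2, 3 and 4 lie at ratios of 3.26 to 3.35, and the other 8 libraries at 0.956 to 1.49.

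Across the 10 samples, the log2 levels of the enzymes went together. The 15 pairs among the 6 enzymes had Pearson correlations of 0.413 to 0.898 with a median of 0.701, and Srebf2 had 0.229 to 0.712 with them. Insig1 had -0.545 to -0.202 with the other 7. In JZL184 libraries 2, 3 and 4 the enzymes were below the control mean and Insig1 was not. Correlations without these libraries were not calculated. The points share library, depth and group, so these values describe the samples.

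The genes most like the members were ranked by the correlation of their log2 level with the mean standardized log2 level of the 8 members over the 10 samples. Of 16562 genes the 10 highest were Radx (0.972), Hspa14, Aplf, Sc5d (0.952), Afap1l1, Tbc1d1, Atxn7l3, Magt1, Fzd5 and Mfsd4b (0.937). Sc5d, a desaturase of the last sterol steps, was the only one of the 10 on the lists of pathway genes. A correlation above 0.7 was seen in 6 of the 45 other pathway genes reported here (13.3%) and in 8.64% of all genes ranked. Only 3 of these 10 genes were also among the 10 highest when FPKM was used, so the order depends on the scale.

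Of the 45 other genes of the pathway reported here, all passed the filter on low counts. By edgeR 0 were called in SAP against control, 0 in JZL184 against SAP, and 1 of 45 (Abca1, higher) in JZL184 against control, where 2.16% of all genes were. Acat2, Mvk, Pmvk, Mvd and Fdps, 5 genes of the steps before squalene that are not members, were below 0 in each comparison, with a median log2 fold change of -0.55 in SAP against control, -0.57 in JZL184 against SAP and -1.30 in JZL184 against control. These comparisons share samples. Mvk, mevalonate kinase, had 22.64, 22.68 and 15.56 FPKM in the control group, 12.64, 12.51, 17.81 and 15.81 in the SAP group, and 10.31, 5.36, 6.34 and 7.45 in the JZL184 group. Its JZL184 values were below all others, library 1 included, and its log2 fold change against control was -1.44 ± 0.32 (SE) at an edgeR adjusted p of 0.0571, while DESeq2 called it. Pmvk, the next kinase, was at -1.40 ± 0.33 (edgeR adjusted p 0.0631), with 125.88 FPKM in JZL184 library 1 and 61.73 to 65.83 in the other 3.

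The 8 genes listed for sterol steps after lanosterol, none of them a member, had a median of -0.50 in JZL184 against SAP, with 6 of them between -1.07 and -0.30 and Lbr and Ebp at -0.03 and -0.01. Over the alternatives Lbr, Ebp and Hsd17b7 reached 0.44, 0.95 and 0.24 there, so their direction changed with the setting. In JZL184 against control 6 of the 8 were below 0 (median -0.63), and edgeR called 0 in either comparison. Tm7sf2, a sterol reductase, had the largest value, -1.70 ± 0.55 (SE) against control at an edgeR adjusted p of 0.108. Sc5d was at -1.07 ± 0.42 in JZL184 against SAP, with 31.58, 29.92, 19.21 and 13.15 FPKM in the SAP libraries and 19.15, 4.34, 6.73 and 9.89 in the JZL184 libraries, with library 1 highest and library 2 lowest in the JZL184 group, as for Sqle. DESeq2 called Mvk, Pmvk, Mvd, Tm7sf2 and Dhcr7 lower and Abca1 higher in JZL184 against control, and Abca1 higher and Erlin1 lower in JZL184 against SAP. These are 6 of 45 beside 8.04% of all genes and 2 of 45 beside 5.32%.

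Among the 9 sensing genes 0 were called by edgeR. Insig2, the second INSIG gene, did not follow Insig1: it was at 4.36, 1.80, 1.85 and 1.79 FPKM in the JZL184 group against 3.57 to 5.24 in the control group, which gave -0.93 ± 0.40 on the log2 scale (SE, edgeR adjusted p 0.186). Erlin1, a protein of the endoplasmic reticulum membrane that binds cholesterol, was at 33.13 and 31.79 FPKM in SAP libraries 1 and 2 and at 12.03 and 11.03 in libraries 3 and 4. Mbtps2, a protease that releases SREBP factors, had the same split within the SAP group at low levels, 1.38 and 1.29 against 0.19 and 0.26 FPKM.

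Genes of uptake and transport held 0 calls of 9 by edgeR in each comparison, with a median log2 fold change of -0.02 in JZL184 against control. Mylip, a ubiquitin ligase, was at 5.46, 5.57 and 9.24 FPKM in the control group, 3.82, 6.74, 4.55 and 6.36 in the SAP group, and 6.69, 6.44, 11.5 and 8.42 in the JZL184 group. Its groups overlapped, and it had the largest value of its list in JZL184 against SAP, 0.76 ± 0.30 (SE, edgeR adjusted p 0.190). Npc1l1, the intestinal importer of cholesterol, was at 19.70, 5.75, 0.37 and 6.83 FPKM in the JZL184 group against 12.70 to 17.43 in the control group and 8.65 to 16.55 in the SAP group, with its lowest level in the library that had the fewest enterocyte transcripts.

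Abca1, the exporter of cholesterol and a target of the sterol receptor LXR, was the single gene of these lists called by edgeR. It was at 0.12, 0.14 and 0.21 FPKM in the control group, 0.59, 0.57, 0.22 and 0.23 in the SAP group, and 0.68, 0.64, 1.70 and 0.81 in the JZL184 group. All JZL184 values were above all others, and the log2 fold change against control was 2.45 ± 0.50 (SE, edgeR adjusted p 0.0489). It was called in 13 of 18 alternatives, at levels below 1 FPKM in all but 1 library. The 8 genes of esterification, efflux and LXR together had a median of 0.01 in that comparison, with 4 above and 4 below 0. The 6 genes of the mevalonate branches that do not lead to cholesterol had a median of -0.04, where Dhdds, of dolichol synthesis, was at -0.99 ± 0.32 (edgeR adjusted p 0.107) and Fntb, of protein farnesylation, at -0.03 ± 0.43.

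**Figure D4:**
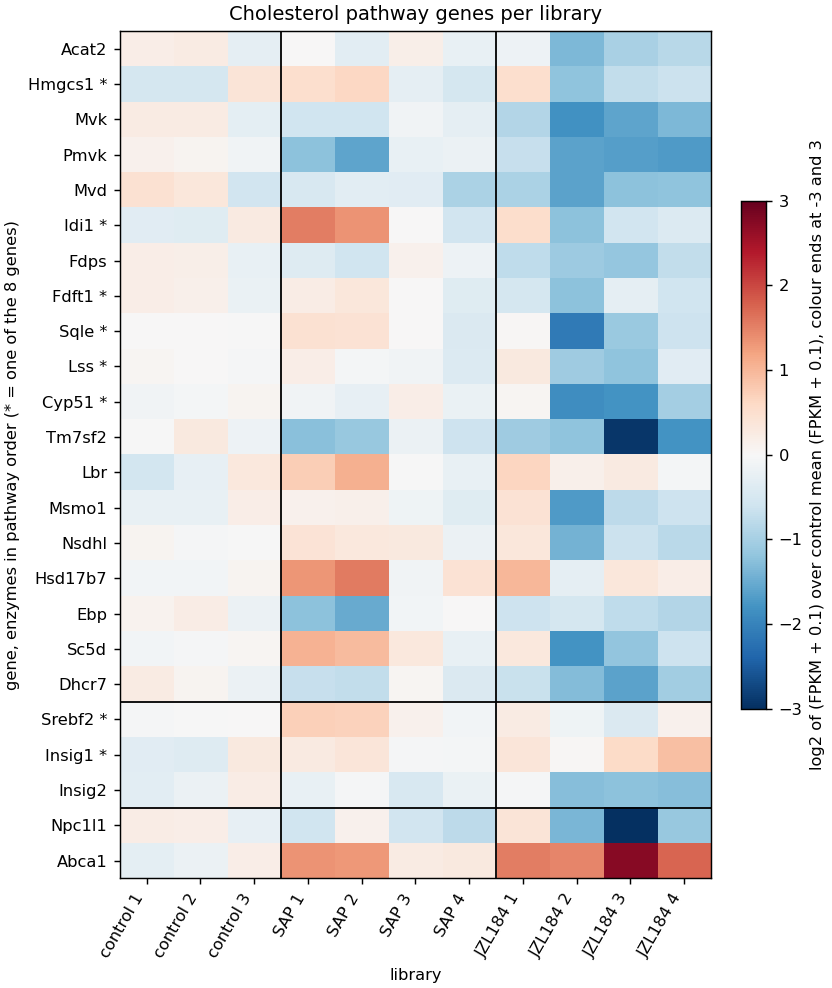
Log2 of FPKM (plus 0.1) over the control mean for 24 genes of the pathway (rows, enzymes in pathway order, members starred) in each of the 11 libraries (columns), with red above and blue below the control mean and the colour ending at -3 and 3. JZL184 libraries 2, 3 and 4 are blue over most enzymes while Insig1 and Abca1 are not, and SAP libraries 1 and 2 share red rows (Idi1, Sc5d, Hsd17b7) and blue rows (Pmvk, Tm7sf2, Ebp).

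The markers of the tissue moved with some of these values. Summed FPKM of 8 epithelial markers was 17890 to 22040 in the control group, 8380 to 14320 in the SAP group and 8037 to 10350 in the JZL184 group. The list went both ways: mean FPKM was lower in the JZL184 than in the control group for Vil1 (131.5 against 377.6), Krt8, Krt19, Krt20, Cldn7 and Epcam (3012 against 3464) and higher for Cdh1 (172.4 against 111.6) and Elf3 (419.2 against 313.5). Summed crypt and cell cycle markers were at 201.9, 107.6, 88.93 and 116.4 FPKM in JZL184 libraries 1 to 4, against 190.0 to 251.4 in the control group. Library 1 was thus above the other 3, as for each enzyme but Fdft1. Of this list only Ccnb1 was not highest in library 1, at 5.64, 6.72, 6.27 and 5.5 FPKM in JZL184 libraries 1 to 4. Summed fibroblast markers were at 29.57 to 58.07 FPKM in the JZL184 group, below the 59.84 to 84.82 of the control group and the 59.44 to 139.0 of the SAP group. Against the control group, mean Col1a1, Col1a2 and Col3a1 were lower, while Dcn (15.85 against 9.945 FPKM) and Pdgfra (1.25 against 1.025) were higher. Summed adipose markers were at 372.7 to 645.4 FPKM in the JZL184 group against 169.4 to 295.2 in the control group and 210.6 to 477.8 in the SAP group. Fabp4 made up most of this sum (mean 453.4 FPKM against 206.5 in the control group). Mean Plin1 and Lep were also higher than in the control group, and Adipoq (10.32 against 13.08 FPKM) and Cidec (4.33 against 6.66) were lower. Immune markers reached 300.6 FPKM in a JZL184 library, where no other group passed 120.5, and smooth muscle markers were as low as 366.7 FPKM in one, where the controls had at least 1872. Enteric neuron and glia markers were at 7.71 to 22.7 FPKM over all libraries. Markers of the exocrine pancreas and of hepatocytes summed to at most 12.17 and 1.71 FPKM in any library. Cela1 made up nearly all of the pancreas sum (12.04 FPKM in control library 2). Cpa1, Cela2a, Ctrb1 and Cel were at or below 0.17 FPKM in every library. The part of cell composition in the levels of the cholesterol genes was not tested.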

How the data were processed

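RNA of whole ileum from 11 rats was sequenced (control 3, SAP 4, JZL184 4). The authors trimmed reads with FASTX-Toolkit and aligned them to mRatBN7.2 with HISAT2, and deposited an unnormalized count of uniquely aligned reads per gene, and FPKM, which the authors calculated from those reads. Which tool counted reads, and on which annotation, is not given in the sources used here. All p-values measure the spread between these samples.

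Counts were compared between pairs of groups over all genes with edgeR 4.0.16 (TMM, filterByExpr with a minimum count of 10, quasi-likelihood test). A call needed an adjusted p (Benjamini-Hochberg) under 0.05 together with a change past 2-fold, that is above 2 or below 0.5. Control libraries 1 and 2 were summed (FPKM averaged). Alternatives were DESeq2 1.42.0, limma 3.58.1 (voom), other filters and scalings, a replicate block, length offsets and left-out libraries. The steps were tested on simulated data. FPKM of the members was compared by exact two-sided permutation tests. Named were all members, Npc1l1, each listed gene called or with the largest change of its list, and the 10 genes most correlated with the members. Mvd, Dhcr7, Hsd17b7, Lbr and Ebp were named after their values were seen. Members and lists were chosen with earlier results of these data known. Some listed pathway genes are not reported here and were left out of the lists' counts and medians. Of the listed markers, Sis, Pnlip and Amy2a3 were not analysed here.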

Additional observations from a re-analysis of the deposited data

Results flagged for a closer look

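In groups of 4 libraries, 40 sets of values were examined for a single library far from the other 3, and 4 had one, where chance gives about 1 in 20. Within the JZL184 group, library 1 stood above the other 3 for Pmvk (125.88 FPKM), Insig2 (4.36 FPKM) and Dhdds (2.72 FPKM). JZL184 library 3 stood above the others for Abca1 (1.70 FPKM).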

How the results depend on the processing

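In each of the 3 comparisons 0 members were called, and this held except in the settings named here, where the cause was not tested. With SAP libraries 1 and 2 alone, 1 member (Idi1) was called in SAP against control and 1 (Idi1) in JZL184 against SAP. In JZL184 against control, limma-voom and JZL184 libraries 2 and 4 alone (added after seeing the data) each called 1 member (Cyp51), and leaving out single libraries gave 0 to 1, with 1 (Cyp51) without JZL184 library 1. With SAP libraries 3 and 4 alone the median of the members was -0.26 (log2) in SAP against control and -0.077 in JZL184 against SAP.

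Signs changed as follows, in log2 fold changes. In SAP against control, SAP libraries 3 and 4 alone gave Mbtps2 -0.16, Idi1 -0.33 and Srebf2 -0.044, and libraries 1 and 2 alone gave Hmgcs1 0.29, Sqle 0.155 and Insig1 0.037. Length offsets gave Sqle 0.079 and Srebf2 -0.16. Hmgcs1 was at 0.001 with at least 10 reads in every library, and with control libraries separate Hmgcs1 was at 0.14 (DESeq2 0.13) and Insig1 at 0.091 (DESeq2 0.083). In JZL184 against SAP, SAP libraries 3 and 4 alone gave Mbtps2 0.99, Hmgcs1 0.045, Idi1 0.004 and Srebf2 0.013, libraries 1 and 2 alone gave Pmvk 0.31, and limma-voom gave Mbtps2 0.048. In JZL184 against control, Fntb was at 0.004 by limma-voom, 0.08 with length offsets, 0.065 (DESeq2 0.043) with control libraries separate and 0.002 with JZL184 libraries 2 and 4 alone, where Srebf2 was at 0.07.

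Leaving out single libraries gave, in SAP against control, Dhdds -0.47 to 0.009, Hmgcs1 -0.35 to 0.43, Fdft1 -0.35 to 0.16, Sqle -0.12 to 0.085 and Insig1 -0.26 to 0.28. In JZL184 against SAP it gave Npc1l1 -1.1 to 0.084. In JZL184 against control it gave Mylip -0.157 to 0.465, Fntb -0.27 to 0.22, Hmgcs1 -0.84 to 0.02 and Srebf2 -0.11 to 0.089.

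Libraries with the same number had correlations of deviations from the group means of -0.449 to 0.123. Pairs with different numbers were not set beside them, so these values cannot decide whether the numbers pair samples. The main fit used no pairing. With the replicate block 0 members were called in each comparison, and in SAP against control Hmgcs1 was at 0.30, Sqle at 0.071 and Insig1 at 0.13. The block with length offsets, also with these control libraries separate, gave Sqle 0.20 and Srebf2 -0.21 in SAP against control and Fntb 0.084 in JZL184 against control. Calls over all genes ranged from 0 to 5859 in SAP against control (0 as reported), 0 to 2912 in JZL184 against SAP (0) and 0 to 3482 in JZL184 against control (343). Abca1 lost its call in 5 of 18 alternatives. The lowest member, Sqle in JZL184 library 2, was at 10.66 CPM, and no library had under 26341299 reads on genes.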
